A study of Mus musculus with 18 samples.

Results

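The genes of heme breakdown and export are 6 of the 46167 mouse genes counted in these data: Hmox1 and Hmox2, Blvra and Blvrb, Flvcr1, and Bach1. They were chosen by symbol in the GENCODE M21 annotation, not by a cutoff on measured values, but with earlier results of these data known. All 6 had enough reads to be tested among 17500 genes. RNA was sequenced from hematopoietic progenitors of CD-1 mouse fetal livers (E14.5), which were enriched with a progenitor kit, depleted of CD71-positive cells and transduced with MSCV-PIG retroviruses that carry a short hairpin RNA (shRNA), a puromycin marker and GFP. The 3 conditions were PCBP1 knockdown (shRNAs 1, 3 and 4 against Pcbp1), PCBP2 knockdown (shRNAs 1, 3 and 4 against Pcbp2) and control (scrambled shRNAs SCR-1 and SCR-2 and luciferase shRNA LUC-1), with 3 libraries each at both times. Day 2 cells had spent 2 further days in differentiation medium with 5 U/mL erythropoietin, and Day 0 cells were collected after 48 hours in expansion medium with dexamethasone, stem cell factor and 0.5 U/mL erythropoietin. The poly(C)-binding proteins PCBP1 and PCBP2 bind C-rich RNA and act in splicing, mRNA stability and iron delivery.

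Heme, the iron-containing ring of hemoglobin, is toxic when free, so cells that make it also need ways to remove it. Heme oxygenases open the ring and release iron, carbon monoxide and biliverdin, and biliverdin reductases turn biliverdin into bilirubin. FLVCR1 carries heme out of the cell in erythroid progenitors. BACH1 represses Hmox1 and other stress genes together with small MAF proteins, and heme binding releases that repression.

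The members lie on GRCm38 at chr8:75093621-75100589 (Hmox1, plus strand, ENSMUSG00000005413), chr16:4726361-4766742 (Hmox2, plus, ENSMUSG00000004070), chr2:127070665-127097084 (Blvra, plus, ENSMUSG00000001999), chr7:27447978-27466144 (Blvrb, plus, ENSMUSG00000040466), chr1:191005847-191026158 (Flvcr1, minus, ENSMUSG00000066595) and chr16:87698945-87733346 (Bach1, plus, ENSMUSG00000025612). Hmox2 overlaps Gm15859 and Cdip1, and Flvcr1 overlaps A230020J21Rik. Gm15859 lies on the strand of Hmox2, while Cdip1 and A230020J21Rik lie opposite to Hmox2 and Flvcr1. These overlaps are of gene spans, introns included. The use of strand in the quantification is not given in the sources used here. Whether the counts of Hmox2 and Flvcr1 include reads of these neighbours was not tested.

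The sequences below are shown because the clearest difference between conditions in this set was in Blvrb, in its level and in the end of its exon 3. Exon 3 can be cut at a downstream donor (after chr7:27459652) or at an upstream donor (after chr7:27459633), and both join exon 4 at chr7:27462567. The 19 bases between the donors, chr7:27459634-27459652, are coding and are in capitals in the first line. The capitals in the third line mark the GT that begins the intron at each donor. All are on the plus strand, from the GENCODE M21 transcripts, with 18 bases on each side.
Blvrb exon 3 to exon 4, downstream donor: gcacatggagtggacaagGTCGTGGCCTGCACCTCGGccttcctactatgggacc
Blvrb exon 3 to exon 4, upstream donor: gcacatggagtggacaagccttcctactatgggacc
Blvrb exon 3 end, both donors unspliced: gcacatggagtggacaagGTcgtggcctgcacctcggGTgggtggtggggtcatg

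The length of 19 bases is not a multiple of 3, with a remainder of 1. In the full-length transcript Blvrb-201 the reading frame has 206 codons before its stop. With the upstream donor in place, it runs in frame for 105 codons and meets a stop after 121, and that stop lies 78 bases before the last exon junction.

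Between 26949351 and 53784224 estimated reads per library fell in annotated genes. The targeted mRNA was low in its own knockdown: Pcbp1 was at 15.6, 57.2 and 40.4 CPM (read counts scaled to each library's normalised size) with PCBP1 shRNAs 1, 3 and 4 at Day 2, against 241 to 284 CPM in controls, and Pcbp2 was at 37.0 to 48.0 CPM in the Day 2 PCBP2 knockdown, against 225 to 247 CPM. Of 10 erythroid markers 9 were measured, and their summed level was 239000 to 356000 CPM over the Day 2 libraries, against 2640 to 3420 CPM over the Day 0 libraries. Macrophages, which also break down heme, gave a summed level of 24.2 to 34.8 CPM over 15 markers at Day 2 and 38.8 to 51.7 CPM at Day 0. The 7 hepatocyte markers summed to 0.145 to 0.501 CPM at Day 2 and 3.67 to 12 CPM at Day 0. Globin transcripts took 24.7% to 33.5% of reads at Day 2 and 0.301% to 0.485% at Day 0. The control LUC-1 at Day 2 stood apart from SCR-1 and SCR-2 on the second principal component of all libraries. These are bulk libraries, so fewer cells of a type and less RNA per cell cannot be told apart.

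The largest changes of these genes were between Day 2 and Day 0. The days differ in medium, erythropoietin dose and time as well as in differentiation, and these cannot be told apart. All 6 members passed the test between Day 2 and Day 0 in controls and in each knockdown. That count has little weight on its own, since 82.9% of all tested genes passed in controls, 82.0% in the PCBP1 knockdown and 83.1% in the PCBP2 knockdown. A gene was called at an adjusted p under 0.05 in edgeR's quasi-likelihood test with Benjamini-Hochberg adjustment over all 17500 genes. The scaling matters here: without the TMM factors, the median of all genes moved by -1.63 log2 units in controls and by -1.42 in each knockdown. Hmox1, Blvrb and Bach1 rose, and Blvra and Flvcr1 fell, under both scalings.

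Hmox1 codes for the inducible heme oxygenase. Its levels in SCR-1, SCR-2 and LUC-1, an order kept for controls throughout, were 2620, 2990 and 2450 CPM at Day 2, against 12.5, 12.1 and 10.0 CPM at Day 0. The days did not overlap, and the rise was 233-fold (log2 7.86, SE 0.20; edgeR adjusted p = 8.93e-19), or log2 6.23 with library totals. In the knockdowns the log2 change was 7.82 (PCBP1) and 8.04 (PCBP2). In TPM (transcript abundance scaled to length and to the library's sum) Hmox1 averaged 982 ± 181 in Day 2 controls and 16.7 ± 2.54 in Day 0 controls (SD, n = 3). Its rank among all genes by TPM was 48 to 67 in the Day 2 controls and 6058 to 6820 in the Day 0 controls. Over the same days 8 of 11 tested macrophage markers fell in controls and 2 rose, where 42.4% of all tested genes fell and 40.5% rose. The cell type behind the Hmox1 rise was not tested.

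Hmox2 codes for the constitutive heme oxygenase. It was at 31.2, 39.2 and 28.1 CPM in the Day 2 controls, against 22.6, 23.0 and 26.2 CPM in the Day 0 controls. The log2 change was 0.46 (SE 0.13; edgeR adjusted p = 0.00235) with TMM scaling but -1.17 with library totals, so its direction over the days depended on the scaling. Its TPM was lower at Day 2, with 14.1 ± 3.57 against 41.8 ± 1.26 at Day 0. Without the Day 2 library SCR-2 the value was 0.24 and the call was lost (adjusted p = 0.0898). The day value was 0.37 in the PCBP1 knockdown and 0.87 in the PCBP2 knockdown, and -1.06 and -0.55 with library totals. Without the filter on low counts the value was 0.27 in controls and 0.18 in the PCBP1 knockdown, and neither was called. The call in the PCBP1 knockdown was also lost with the length offset (0.30), with the GC trend removed (0.21), and without Day 0 shRNA 1 (0.29) or 3 (0.32) or Day 2 shRNA 3 (0.29) or 4 (0.25).

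Blvra codes for biliverdin reductase A, the main enzyme that makes bilirubin in adult tissue. It was at 7.56, 6.20 and 5.12 CPM in the Day 2 controls, against 22.8, 22.5 and 22.9 CPM in the Day 0 controls, a fall of 1.85 log2 units (SE 0.15; edgeR adjusted p = 1.85e-10). It fell by 1.28 in the PCBP1 knockdown and by 2.02 in the PCBP2 knockdown.

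Blvrb codes for biliverdin reductase B, an NADPH-dependent flavin and biliverdin reductase abundant in red cells. It was at 1730, 1900 and 2260 CPM in the Day 2 controls, against 132, 144 and 122 CPM in the Day 0 controls. It rose 14.8-fold in controls (log2 3.89, SE 0.15; edgeR adjusted p = 9.47e-16), by 3.84 in the PCBP1 knockdown and by 3.38 in the PCBP2 knockdown. Blvra and Blvrb therefore moved in opposite directions over the days. Per length, Blvrb averaged 1487 ± 42.9 TPM and Blvra 3.37 ± 1.14 TPM in the Day 2 controls, against 419 ± 39.3 and 52.9 ± 2.25 TPM in the Day 0 controls.

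Flvcr1 was at 9.65, 11.4 and 13.4 CPM in the Day 2 controls, against 32.7, 30.2 and 40.3 CPM in the Day 0 controls. It fell by 1.58 log2 units (SE 0.14; edgeR adjusted p = 9.28e-10), by 1.65 in the PCBP1 knockdown and by 1.15 in the PCBP2 knockdown. Bach1 was at 761, 713 and 655 CPM in the Day 2 controls, against 62.1, 63.3 and 58.3 CPM in the Day 0 controls. It rose 11.6-fold (log2 3.53, SE 0.11; edgeR adjusted p = 2.23e-17), by 3.61 in the PCBP1 knockdown and by 3.48 in the PCBP2 knockdown. The repressor and its target Hmox1 thus both rose.

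In TPM, the order in the Day 2 controls was Blvrb (1487), Hmox1 (982), Bach1 (73.9), Hmox2 (14.1), Blvra (3.37) and Flvcr1 (2.06). No neighbouring ranges of libraries overlapped, and the nearest were 2.31 to 4.58 TPM for Blvra and 1.9 to 2.27 TPM for Flvcr1. In the Day 0 controls it was Blvrb (419), Blvra (52.9), Hmox2 (41.8), Flvcr1 (23.4), Bach1 (22.6) and Hmox1 (16.7). Flvcr1 and Bach1 overlapped there, with 20.99 to 26.01 and 20.29 to 23.93 TPM.

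**Figure D1:**
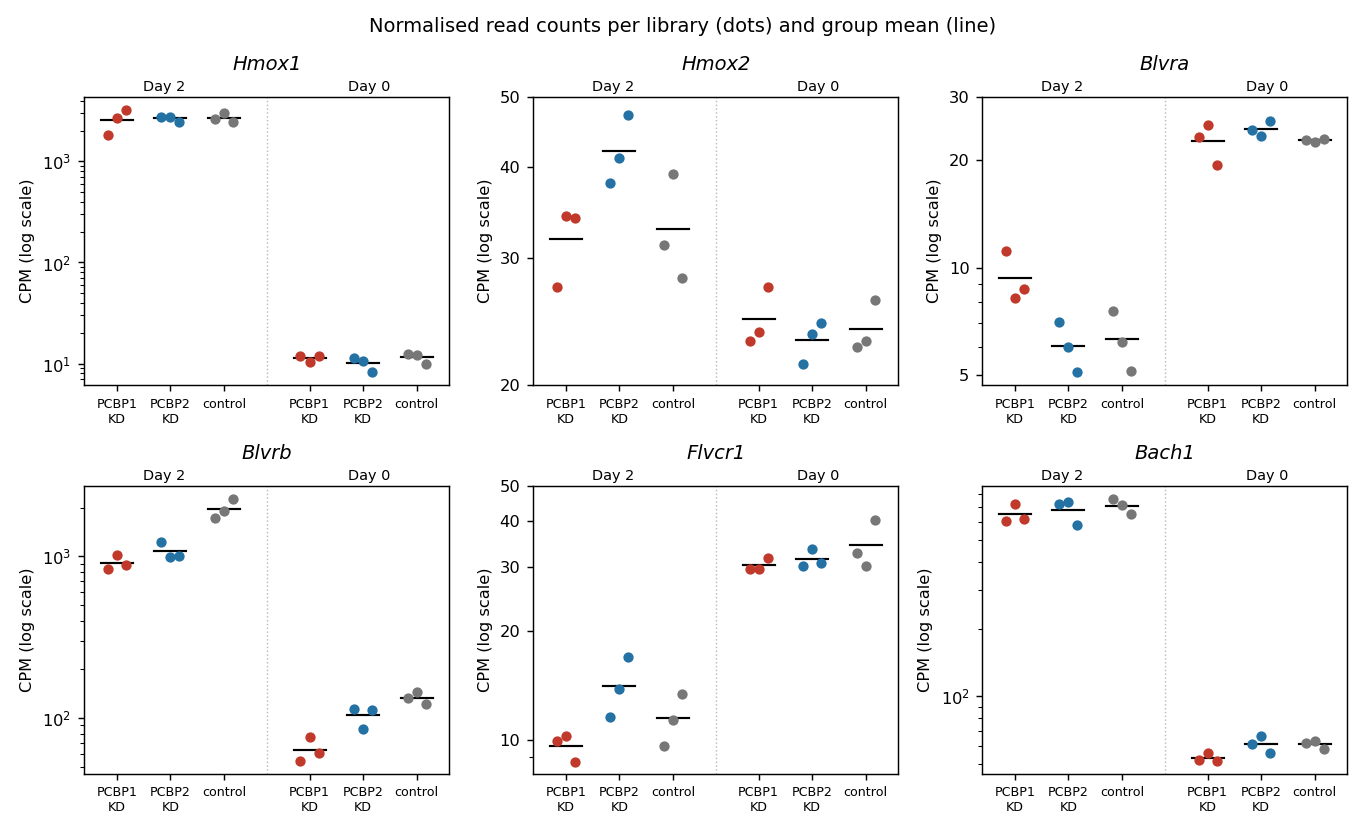
CPM of each member on a log axis, per library (dots) with the group mean (line), Day 2 on the left and Day 0 on the right of each panel. Hmox1, Blvrb and Bach1 were higher and Blvra and Flvcr1 lower at Day 2, Hmox2 changed direction with library totals, and Blvrb was lower in both knockdowns than in control on each day.

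The next comparison was each knockdown against control on the same day. Blvrb was the member that fell, in 3 of the 4 comparisons. In the PCBP1 knockdown the members called were Blvrb and Blvra at Day 2, where 13.1% of all tested genes were called, and Blvrb at Day 0, where 0.88% were. In the PCBP2 knockdown Blvrb was called at Day 2, where 4.7% of all tested genes were called, and no member at Day 0 (1 at an unadjusted p under 0.05, and 0 with DESeq2), where 4 genes or 0.0229% were by edgeR and 13 with DESeq2. Libraries of different shRNAs serve as the replicates, and nothing in the labels says that they came from separate cultures, litters or dates. A p-value therefore covers only the variation among these libraries, which may be technical. The fit shared its spread over both days, while the common dispersion was 0.0293 at Day 2 alone and 0.00749 at Day 0 alone. The p-values and shares of 1 day therefore do not rest on the spread of that day alone. In the 9 libraries of a day, 899 (PCBP1) and 30 (PCBP2) genes were called at Day 2, in place of 2296 and 822. At Day 0 they were 1074 and 6, in place of 154 and 4. Both knockdowns were set against the same control libraries.

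With PCBP1 shRNAs 1, 3 and 4, Blvrb was at 835, 1020 and 887 CPM at Day 2, against 1730, 1900 and 2260 CPM in controls. At Day 0 it was at 54.4, 76.5 and 60.3 CPM, against 132, 144 and 122 CPM in controls. The groups did not overlap on either day. The log2 change was -1.11 (SE 0.14; edgeR adjusted p = 3.56e-05) at Day 2, or 0.465 times the control level, and -1.06 (SE 0.14; adjusted p = 5.52e-04) at Day 0, or 0.481 times. By p-value Blvrb ranked 43 among all genes at Day 2 and 5 at Day 0. The difference between the effects of the 2 days was -0.05 (SE 0.19; edgeR adjusted p = 0.946).

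The 3 PCBP1 shRNAs left different amounts of their target, and Blvrb followed the same order on both days. At Day 2, shRNAs 1, 4 and 3 left 15.6, 40.4 and 57.2 CPM of Pcbp1 beside 835, 887 and 1020 CPM of Blvrb. At Day 0 they left 14.2, 24.3 and 59.4 CPM of Pcbp1 beside 54.4, 60.3 and 76.5 CPM of Blvrb. With PCBP2 shRNAs 3, 1 and 4 there was no such order: Pcbp2 at 37.0, 39.5 and 48.0 CPM stood beside Blvrb at 996, 1230 and 1000 CPM at Day 2, and at 70.3, 71.0 and 73.5 CPM beside 85.0, 114 and 112 CPM at Day 0. The order of 3 libraries is a description and was not tested.

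With PCBP2 shRNAs 1, 3 and 4, Blvrb was at 1230, 996 and 1000 CPM at Day 2, below all controls. The log2 change was -0.87 (SE 0.14; edgeR adjusted p = 0.00196), or 0.548 times the control level. At Day 0 it was at 114, 85.0 and 112 CPM, also below all controls, but the change of -0.36 (SE 0.14) did not pass the test (edgeR adjusted p = 1). The effects of the 2 days differed by -0.51 (SE 0.19), which did not pass either (edgeR adjusted p = 0.449). No gene of the 17500 passed that test of a difference in PCBP2 effect by edgeR (0.0%; 1594 at an unadjusted p under 0.05; 90 with DESeq2).

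The Blvrb calls held in each of the alternative normalisations, filters and tests that were tried and without any 1 library. Over these settings the log2 value lay between -1.16 and -0.87 for PCBP1 at Day 2, between -1.21 and -0.86 for PCBP1 at Day 0, and between -1.0 and -0.67 for PCBP2 at Day 2. The values nearest 0 came from library totals at Day 2 and from removal of the GC trend at Day 0. The summed erythroid markers were also lower at Day 2, at 239000 to 258000 CPM (PCBP1 knockdown) and 250000 to 291000 CPM (PCBP2 knockdown), against 295000 to 356000 CPM in controls. The sum adds CPM, so the most abundant genes weigh most. As a share of reads, globin transcripts took 24.7% to 26.6% and 25.9% to 28.6%, against 27.6% to 33.5% in controls, so the PCBP2 knockdown overlapped control there. At Day 0 the summed erythroid markers overlapped, with 2640 to 3180 CPM in the PCBP1 knockdown and 3020 to 3420 CPM in controls. The macrophage and hepatocyte sums of the Day 0 PCBP1 knockdown lay below control without overlap, at 38.8 to 44.3 CPM against 44.4 to 51.7 CPM and at 3.67 to 7.65 CPM against 9.36 to 11.5 CPM. In the Day 0 PCBP2 knockdown the macrophage sum also lay below control, at 43.1 to 43.7 CPM, and the hepatocyte sum overlapped control, at 10.1 to 12 CPM. Of the 9 erythroid markers tested, 7 fell in the PCBP1 knockdown and 3 in the PCBP2 knockdown at Day 2, where 7.61% and 3.75% of all tested genes fell. None passed in either at Day 0, where 0.88% and 0.0229% of all tested genes were called. The part of any of these markers in the Blvrb results was not tested.

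Blvra was the other member called. With PCBP1 shRNAs 1, 3 and 4 it was at 11.1, 8.22 and 8.68 CPM at Day 2, against 7.56, 6.20 and 5.12 CPM in controls, with no overlap. It rose by 0.56 log2 units (SE 0.16; edgeR adjusted p = 0.0218). The call was lost without shRNA 1 (0.42, adjusted p = 0.15), LUC-1 (0.43, 0.128) or SCR-2 (0.58, 0.0576), and in a fit of the 9 Day 2 libraries alone (0.58, 0.104). At Day 0 Blvra overlapped control, with 23.2, 25.1 and 19.4 CPM against 22.8, 22.5 and 22.9 CPM.

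The other members did not pass in any comparison of a knockdown with control. At Day 2, Hmox1 averaged 2560 ± 700 CPM in the PCBP1 knockdown and 2660 ± 200 CPM in the PCBP2 knockdown, against 2690 ± 280 CPM in controls (SD, n = 3). The log2 values were -0.07 and -0.01 (SE 0.15 each), and the low PCBP1 library was shRNA 1, at 1810 CPM. At Day 0 Hmox1 averaged 11.3 ± 0.81 and 10.1 ± 1.6 CPM, against 11.5 ± 1.3 CPM. Bach1 was at 650 ± 61 and 682 ± 86 CPM at Day 2, against 710 ± 53 CPM in controls. At Day 0 the 3 PCBP1 libraries had 52.0, 55.9 and 51.6 CPM of Bach1, below all controls at 58.3 to 63.3 CPM, but the log2 value of -0.20 (SE 0.10) did not pass (edgeR adjusted p = 0.509).

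Hmox2 in the Day 2 PCBP2 knockdown was at 38.1, 41.2 and 47.2 CPM, against 31.2, 39.2 and 28.1 CPM in controls, a log2 value of 0.36 (SE 0.13; edgeR adjusted p = 0.114). Flvcr1 was at 11.6, 13.8 and 16.9 CPM, against 9.65, 11.4 and 13.4 CPM, a log2 value of 0.30 (SE 0.15; adjusted p = 0.272). Neither passed. With library totals both were called, at 0.56 and 0.52, where the median of all genes in that comparison moved by 0.20. Hmox2 also passed without SCR-2 (0.49, adjusted p = 0.0365).

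**Figure D2:**
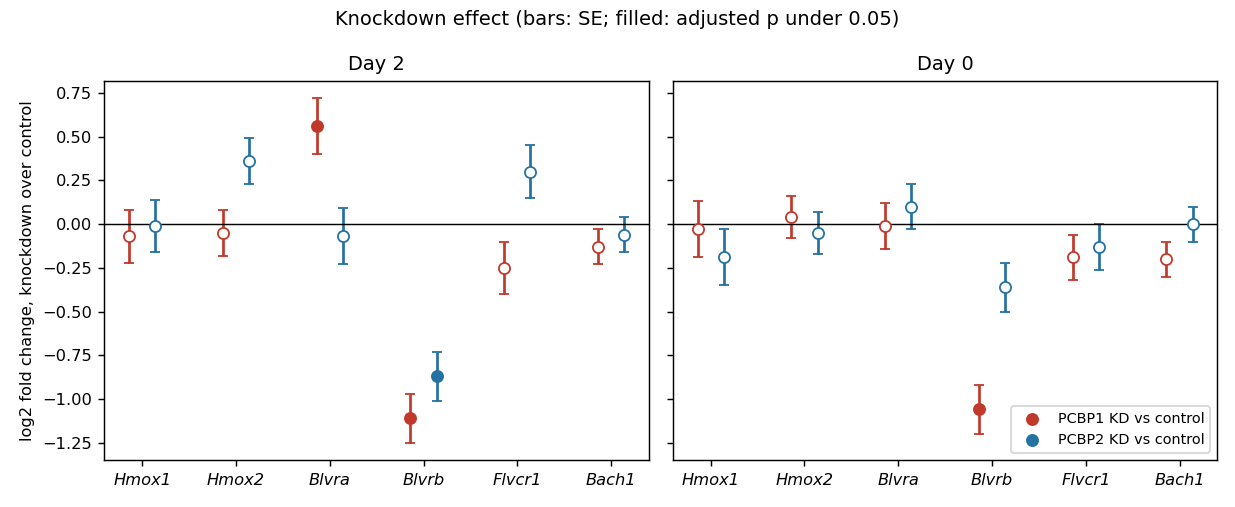
Log2 fold change of each knockdown over control for the 6 members at Day 2 (left) and Day 0 (right), with bars for the SE and filled points at an adjusted p under 0.05. Blvrb lay at -1.11 and -0.87 at Day 2 and at -1.06 and -0.36 at Day 0, and Blvra at 0.56 was the only filled point above 0 with this scaling.

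A direct comparison of the PCBP2 with the PCBP1 knockdown separated other members at Day 2. There 3 members were called, where 12.1% of all tested genes were (4.79% higher and 7.3% lower with PCBP2 shRNAs). Hmox2 was at 38.1 to 47.2 CPM with PCBP2 shRNAs and 27.3 to 34.3 CPM with PCBP1 shRNAs (log2 0.41, SE 0.13; edgeR adjusted p = 0.0424). Flvcr1 was at 11.6 to 16.9 CPM against 8.73 to 10.3 CPM (0.55, SE 0.15; adjusted p = 0.0201). Blvra was at 5.08 to 7.05 CPM against 8.22 to 11.1 CPM (-0.63, SE 0.16; adjusted p = 0.0148). None of these 3 was called by edgeR in the 9 Day 2 libraries alone, with adjusted p from 0.103 to 0.152. Hmox2 also lost its call with DESeq2 size factors (0.37, adjusted p = 0.0568) and with library totals (0.38, 0.0846). Single libraries decided these calls too. Hmox2 lost its call in 13 of 18 fits with 1 library left out, at 0.27 without PCBP1 shRNA 1 or PCBP2 shRNA 4 of Day 2. Flvcr1 lost it without Day 2 PCBP1 shRNA 1 (0.54) or 4 (0.45) or PCBP2 shRNA 3 (0.51) or 4 (0.36), and Blvra without PCBP1 shRNA 1 (-0.53) or PCBP2 shRNA 4 (-0.57). Blvrb did not pass there (0.24, SE 0.14; adjusted p = 0.283).

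At Day 0 Blvrb was the member that differed between the knockdowns, where 0.28% of all genes were called. It was at 85.0 to 114 CPM with PCBP2 shRNAs and 54.4 to 76.5 CPM with PCBP1 shRNAs (log2 0.70, SE 0.14; edgeR adjusted p = 0.0339). The call was lost with the GC trend removed (0.57, adjusted p = 0.107), with an effective length offset (0.65, 0.0573), and without any 1 of 6 libraries (adjusted p from 0.0512 to 0.307): SCR-1, PCBP1 shRNA 1 or 4, or PCBP2 shRNA 1 or 4 of Day 0, or PCBP1 shRNA 4 of Day 2. No member's knockdown effect was called different between the days by edgeR or DESeq2, with 1 member at an unadjusted p under 0.05 for PCBP1 and 3 for PCBP2. For PCBP1, 0.389% of all genes were called. Blvra came nearest for PCBP1, with 0.57 (SE 0.21; edgeR adjusted p = 0.222).

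The authors' deposited tables of local splicing variations give the share of use of each junction that leaves or enters an exon (percent spliced in, PSI), pooled over the libraries of a group, with no depth or error. Use of the upstream donor of Blvrb exon 3, whose sequence is given above, was higher in both knockdowns on both days. In the authors' deposited table its PSI at Day 2 was 26.6% in the PCBP1 knockdown and 28.7% in the PCBP2 knockdown, against 14.9% in controls. At Day 0 it was 19.9% and 8.6%, against 3.4% in controls. The deposited expected changes were 11.2 and 13.8 points at Day 2 and 17.4 and 5.2 points at Day 0 for PCBP1 and PCBP2. The deposited posterior probabilities of a change of at least 20 points were 0.0195, 0.104, 0.234 and 1.28e-19 in the same order. The downstream donor was at 72.5% and 70.6% at Day 2, against 84.5%, and at 80.1% and 91.3% at Day 0, against 96.5%. The deposited change does not always have the sign of the PSI difference. Among member junctions whose PSI differed by at least 2 points, the signs were the same in 38 of 47 (PCBP1) and 43 of 51 (PCBP2) at Day 2. At Day 0 they were the same in 19 of 22 and 18 of 19. For the upstream donor of Blvrb they were the same in each comparison.

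The same donor choice is listed from exon 3 and again from exon 4, with nearly equal values, so it counts as 2 variations. Of the 49 variations listed for members at Day 2, a change of at least 10 points was given for 3 in the PCBP1 table and 4 in the PCBP2 table, against 2.34% and 1.61% of all variations. Of the 42 at Day 0 there were 2 for PCBP1, both of them this donor, and none for PCBP2, against 0.643% and 0.377%. No member variation reached 20 points in any of the 4 tables, beside 0.771% and 0.467% of all variations at Day 2 and 0.238% and 0.115% at Day 0.

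**Figure D3:**
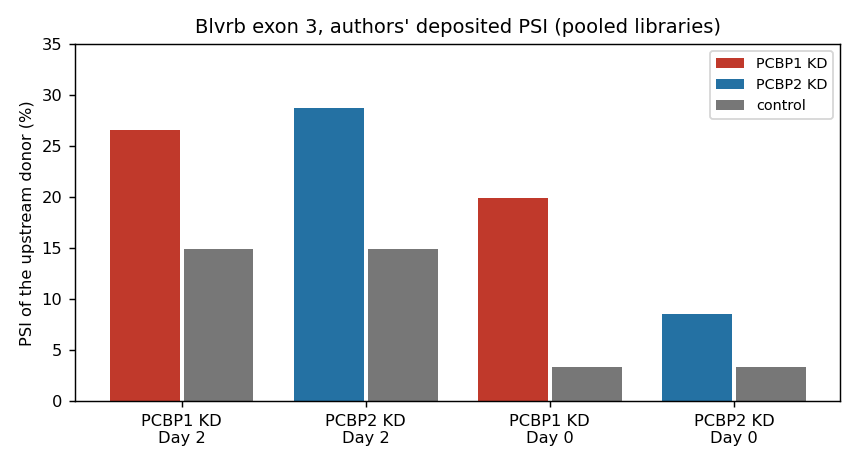
PSI of the upstream donor of Blvrb exon 3 in percent, from the authors' deposited tables, for each knockdown (coloured bars) beside the control of the same day (grey bars). The values are pooled over libraries with no error given, and each knockdown lies above its control, the widest gap being 19.9% against 3.4% for PCBP1 at Day 0.

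The Salmon estimates per library allow the spread to be seen. Of the Blvrb transcripts, Blvrb-201 and Blvrb-202 use the downstream donor and Blvrb-203 and Blvrb-205 the upstream donor, and Blvrb-202 and Blvrb-205 begin at another first exon. Blvrb-205 removes the intron before exon 3, but it begins at the first exon of Blvrb-202. No annotated Blvrb transcript joins the first exon of Blvrb-201, removal of that intron and the upstream donor, so no estimate stands for that form. Blvrb-205 was assigned few reads and did not move as Blvrb-203 did. It averaged 0.177% of Blvrb abundance in the PCBP1 knockdown and 0.247% in the PCBP2 knockdown, against 0.31% in controls at Day 2. At Day 0 it averaged 0.08% and 0.157%, against 0.163%. The share of Blvrb-203 in Blvrb abundance, adjusted for length, was 26.56%, 21.32% and 25.83% with PCBP1 shRNAs 1, 3 and 4 and 21.72%, 22.33% and 23.43% with PCBP2 shRNAs at Day 2, against 17.23%, 16.82% and 15.12% in controls. At Day 0 it was 16.97%, 14.07% and 18.11% and 8.69%, 9.72% and 7.24%, against 3.97%, 4.36% and 5.80% in controls. Neither knockdown overlapped control on either day. Such a gap without overlap was seen for 10.9% and 9.99% of all transcripts compared at Day 2 and for 9.83% and 6.09% at Day 0 (PCBP1 and PCBP2, in this direction), so the absence of overlap is not particular to Blvrb. The differences of the means were 8.2 and 6.1 points at Day 2 and 11.7 and 3.8 points at Day 0. PCBP1 shRNA 3, which left the most Pcbp1, gave the lowest Blvrb-203 share of its group on both days. At Day 0 the rest did not follow the order of Pcbp1: shRNA 1, which left the least, had a lower share (16.97%) than shRNA 4 (18.11%).

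The share of the full-length Blvrb-201 was 4.85%, 4.16% and 3.40% with PCBP1 shRNAs and 5.20%, 4.59% and 3.86% with PCBP2 shRNAs at Day 2, against 11.88%, 27.02% and 31.13% in controls. At Day 0 it was 4.43%, 9.23% and 2.56% with PCBP1 shRNAs and 17.99%, 8.15% and 23.96% with PCBP2 shRNAs, against 28.94%, 34.58% and 23.25%. The PCBP1 shares lay below control on both days, and the PCBP2 shares did so at Day 2 and overlapped at Day 0. Among all transcripts a share below control without overlap was seen for 9.91% (PCBP1, Day 2), 9.38% (PCBP2, Day 2) and 9.61% (PCBP1, Day 0). In TPM, Blvrb-201 averaged 39.1 ± 6.92 in the PCBP1 knockdown and 47.4 ± 10.2 in the PCBP2 knockdown, against 344 ± 144 in controls at Day 2 (SD, n = 3). Blvrb-203 averaged 231 ± 6.93 and 232 ± 7.68 TPM, against 244 ± 21.6 TPM. At Day 0, Blvrb-201 averaged 12.9 ± 10.0 TPM and 57.5 ± 30.3 TPM, against 123 ± 34.4 TPM, and Blvrb-203 averaged 36.6 ± 2.51 TPM and 28.4 ± 3.96 TPM, against 19.5 ± 2.33 TPM in controls. Blvrb-202, the most abundant transcript and one that also uses the downstream donor, averaged 600 ± 93.5 TPM and 687 ± 45.7 TPM at Day 2, against 758 ± 186 TPM, with shares of 63.1% and 66.4%, against 50.8%. At Day 0 its shares were 70.4% and 67.4%, against 59.4% in controls. At Day 2 the means of Blvrb-202 and Blvrb-203 lay within 1 SD of the control mean in TPM, which with 3 libraries does not show them unchanged. Of the downstream-donor transcripts, Blvrb-201 had the larger fall in TPM, and the mean of Blvrb-202 was also lower in both knockdowns. The split between these transcripts is Salmon's estimate. TPM is a share of all transcripts, globin included.

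The estimates and the junction tables disagree on other features of these transcripts. Blvrb-203 also keeps the intron before exon 3, but the authors' deposited tables give the junction that removes it a PSI of 98.9% or more in all groups. Salmon assigned Blvrb-202 50.8% of Blvrb abundance in Day 2 controls and 59.4% in Day 0 controls. The authors' deposited tables gave the junction of its first exon a PSI of 7.6% and 0.2% in those controls among junctions entering exon 2. The isoform shares are therefore given as estimates, and the donor values as the more direct measure.

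**Figure D4:**
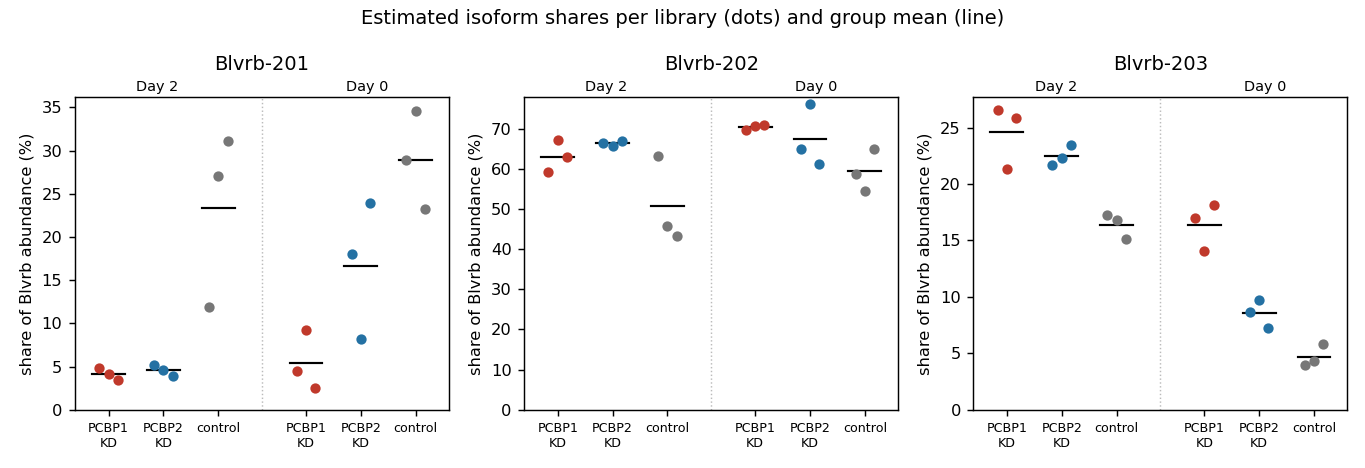
Share of length-adjusted Blvrb abundance in percent assigned by Salmon to Blvrb-201, Blvrb-202 and Blvrb-203, per library (dots) with the group mean (line), Day 2 on the left of each panel. Blvrb-203 averaged 24.6% and 22.5% in the PCBP1 and PCBP2 knockdowns, against 16.4% in controls at Day 2, and 16.4% and 8.55%, against 4.71%, at Day 0.

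Other junctions of the set were also listed with changes. In the authors' deposited tables the first-exon junction of Blvrb-202 into exon 2 was at 16.7% in the PCBP1 knockdown and 12.1% in the PCBP2 knockdown at Day 2, against 7.6% in controls, with expected changes of 8.9 and 4.8 points. In the authors' deposited tables the Bach1 junction from chr16:87699056 to chr16:87715331 was at 55.0% in the Day 2 PCBP2 knockdown, against 67.8% in controls, a change of -10.4 points. It was at 72.6% in the Day 0 PCBP1 knockdown, against 90.5%, with an expected change of -9.0 points. The Blvra junction from chr2:127070725 to chr2:127080530 was at 17.9% and 18.7% in the PCBP1 and PCBP2 knockdowns at Day 2, against 41.2% in controls, a wider gap in PSI than that of the Blvrb donor, while the authors' deposited expected changes were -5.8 and -5.3 points. Flvcr1 had no variation listed.

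The genes around the members were followed in lists written from textbook knowledge. Over the days in controls, 6 of the 9 genes for BACH1 partners, NRF2 and their control rose and 3 fell. Mafg, Mafk and Nfe2, whose products pair in MAF and NF-E2 complexes, rose by 4.03 (SE 0.08), 5.31 (0.12) and 4.67 (0.14) log2 units, and Cul3, a ubiquitin ligase scaffold that acts with KEAP1, rose by 1.78 (0.09). Of 20 genes known as NRF2 or BACH1 targets, 14 rose and 3 fell. Srxn1 (sulfiredoxin), Ftl1 (ferritin light chain), Slc30a1 (a zinc exporter) and Gclm (glutathione synthesis) rose by 5.64 (0.11), 5.14 (0.14), 5.32 (0.15) and 2.91 (0.09). Among 13 tested genes of heme transport and binding, 6 rose and 5 fell, with Slc48a1 (the lysosomal heme transporter HRG1), Dirc2 (of the same carrier family as Flvcr1) and Abcg2 (a porphyrin exporter) up by 3.82 (0.11), 3.48 (0.14) and 2.05 (0.13) and Hp (haptoglobin) down, at -1.41 (0.13). With library totals the splits were 5 up and 3 down for the partners, 9 and 11 for the targets, and 3 and 9 for transport.

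Among 9 genes for the electron supply of heme oxygenase and heme-regulated proteins, 6 rose and 3 fell, or 2 and 5 with library totals. Eif2ak1, the heme-regulated eIF2α kinase, rose by 4.77 (SE 0.10) and Cyb5a, cytochrome b5, by 3.80 (0.09), while Alas1, the non-erythroid first enzyme of heme synthesis, changed by -3.44 (0.12) and Ireb2 by -1.21 (0.09). Of 14 heme synthesis genes, of which Alas2 is also an erythroid marker, 13 rose and none fell, or 9 and 4 with library totals, with Alas2 at 7.54 (0.15), Fech at 3.56 (0.11) and Abcb6 at 3.27 (0.10). Of 4 tested genes of bilirubin conjugation and export, Abcc3 rose by 2.60 (0.42) and Abcc4 fell by 1.04 (0.11), and 1 rose and 3 fell with library totals. The median log2 change was 2.22 for the partners, 1.27 for the targets, 0.15 for transport, 1.36 for the heme-regulated genes, -0.43 for bilirubin genes and 3.18 for heme synthesis, beside -0.05 over all genes tested. The counts are to be read against the 40.5% of all genes that rose and the 42.4% that fell in controls (7087 and 7421 genes, or 3560 and 11368 with library totals).

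**Figure D5:**
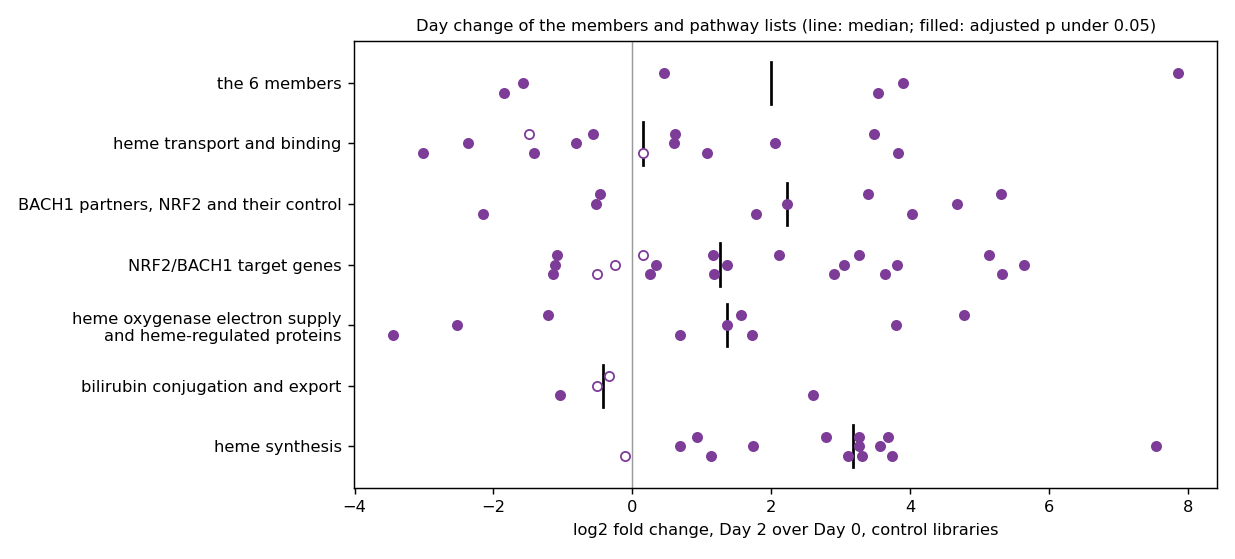
Log2 fold change of Day 2 over Day 0 in the control libraries for the 6 members and for each gene of the pathway lists (points, filled at an adjusted p under 0.05), with the median of each row as a line. The scale uses TMM factors, and library totals move the median of all genes by -1.63. Hmox1 (7.86) and Alas2 (7.54) lie farthest to the right.

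In the Day 2 PCBP1 knockdown, 5 of the 9 BACH1 partner genes fell and none rose, at a list median of -0.50 beside 0.02 over all genes, of which 5.51% rose and 7.61% fell (964 and 1332 genes, or 3454 and 626 with library totals, which moved the median by 0.23). Mafg was at 841 ± 11 CPM against 1220 ± 25 CPM in controls (log2 -0.54, SE 0.07; edgeR adjusted p = 7.81e-05). Nfe2 was at 1690 ± 110 CPM against 2710 ± 440 CPM (-0.68, SE 0.12), and Mafk at 776 ± 47 CPM against 1150 ± 56 CPM (-0.57, SE 0.10). Maff was at 6.18 ± 0.92 CPM against 14.2 ± 2.9 CPM (-1.20, SE 0.16; adjusted p = 8.40e-05). With library totals 4 fell and 1 rose. These genes are known to be expressed in erythroid cells, and the summed erythroid markers given above differed between the same libraries. Their part in the result was not tested.

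In the same comparison, 3 of the 20 NRF2 or BACH1 targets rose and 3 fell (10 rose and 2 fell with library totals), at a median of 0.03. Nqo1, a quinone reductase, rose by 0.52 (SE 0.11; edgeR adjusted p = 0.00265), and Pgd and Taldo1, enzymes of the pentose phosphate pathway, fell by 0.65 (0.09) and 0.38 (0.09). Mt1, a metallothionein, averaged 37.8 ± 22 CPM, against 142 ± 30 CPM in controls, with a log2 change of -1.92 (0.26; edgeR adjusted p = 8.40e-05). Of 14 heme synthesis genes 8 fell and none rose, at a median of -0.38 (3 fell and 1 rose with library totals). Ppox, Abcb10, Abcb6 and Slc25a38 changed by -1.08 (0.15), -0.66 (0.10), -0.44 (0.09) and -0.50 (0.10). Nr1d2, the heme-binding nuclear receptor REV-ERBβ, rose by 0.54 (0.14) and was the only one of its list to pass. No gene of heme transport and binding or of bilirubin conjugation was called by edgeR or DESeq2, with 3 and 1 at an unadjusted p under 0.05.

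In the Day 2 PCBP2 knockdown, where 0.949% of all genes rose and 3.75% fell (166 and 656 genes, or 985 and 227 with library totals), 10 list genes passed, against 20 in the PCBP1 knockdown. Of these, 2 of the 9 partners fell (Mafg by 0.35, SE 0.07, and Keap1, which holds NRF2 in check, by 0.57, SE 0.13), 2 of the 20 targets fell (Taldo1 by 0.51, SE 0.09, and Tkt, transketolase, by 0.44, SE 0.11), and 4 of the 14 heme synthesis genes fell (Abcb10, Abcb6, Urod and Alad, by 0.43, 0.37, 0.43 and 0.52). Nr1d2 rose by 0.69 (0.14), and Cyb5r3, cytochrome b5 reductase, fell by 0.61 (0.13). All 10 calls were lost in the 9 Day 2 libraries alone, and those of the partners and heme synthesis genes were lost with library totals. At Day 0, Alad (-0.71, SE 0.15; edgeR adjusted p = 0.0202) was the only list gene called for PCBP1, and none was for PCBP2 by edgeR or DESeq2 (2 at an unadjusted p under 0.05). In the 9 Day 0 libraries alone, 16 list genes were called for PCBP1, 14 of them lower.

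Between the knockdowns at Day 2, Maff was higher with PCBP2 shRNAs (log2 0.70, SE 0.17; edgeR adjusted p = 0.00991). Among the targets Pgd was higher (0.59, SE 0.09) and Tkt, Prdx1 and Nqo1 were lower (-0.64, -0.46 and -0.53) in the PCBP2 than in the PCBP1 knockdown. In heme synthesis Ppox was higher (0.81, SE 0.15) and Tmem14c lower (-0.37, SE 0.10). At Day 0 Alad was higher (0.69, SE 0.15; edgeR adjusted p = 0.0467).

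The genes with the most similar pattern were taken by Pearson's r of log2 CPM over the 18 libraries after centring within each day, among 9049 genes. The libraries share depth and composition differences, so these are descriptions. For Blvrb they were Selenow, Atp5d and Josd2 (0.95 each). For Blvra they were Mrps14, Cip2a and Smc2 (0.95, 0.94 and 0.93), and for Flvcr1 Ptpn2, Zcchc2 and Map3k2 (0.87, 0.87 and 0.86). For Hmox1 they were Kif21b, Lpin1 and Zfp36 (0.83, 0.78 and 0.77), for Hmox2 Ddi2, Nol11 and Tef (0.91, 0.90 and 0.87), and for Bach1 Pck2 and Myo6 (0.83 and 0.82). Within the set the widest values were -0.74 between Blvra and Flvcr1, 0.57 between Hmox2 and Flvcr1, 0.53 between Blvrb and Bach1 and -0.53 between Hmox2 and Blvra, while Hmox1 and Bach1 were at 0.30.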

How the data were processed

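The submitters' processing notes name GRCm38 and the tools FastQC 0.11.9, Trim Galore 1.46.0, STAR 2.5.3a, SAMtools 1.9 and Salmon 0.11.3. The authors deposited estimated counts, effective lengths and TPM per transcript for each of the 18 libraries. Estimated counts were summed over the 110403 of 111706 transcripts that matched GENCODE M21, giving 46167 genes, and rounded. The deposited TPM values were summed per gene. The authors also deposited PSI fractions, expected changes and posterior probabilities per junction for pooled groups, printed here in percent or points; the tool behind them is not given in the sources used here.

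Counts were filtered by edgeR to 17500 genes, scaled by TMM and fitted with 6 group means (12 residual degrees of freedom, common dispersion 0.0169) in edgeR 4.0.16 under R 4.3.3, with quasi-likelihood F tests, after a test on simulated data. Calls used a Benjamini-Hochberg adjusted p under 0.05 over all tested genes. Log2 fold changes are fitted values; CPM use the TMM-scaled library size. The 11 contrasts were each knockdown against control and against the other on each day, Day 2 against Day 0 in each condition, and the Day 2 minus the Day 0 effect for either knockdown. Alternatives were DESeq2 1.42.0, other scalings and filters, an effective length offset, removal of a GC trend, the 9 libraries of a day (common dispersion 0.0293 at Day 2 and 0.00749 at Day 0), replicate blocks and each library left out. Named genes were the 6 members in every comparison, up to 4 called genes per list and comparison by smallest p, and the 3 genes most like each member, except a few items that are not reported here. Where a gene beyond those 4 is named, it was chosen after its values were seen. The members and lists were chosen with earlier results of these data known.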

Additional observations from a re-analysis of the deposited data

Results flagged for a closer look

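Maff codes for a small MAF protein that pairs with BACH1 and NRF2, and its PCBP1 knockdown effect differed between the days by the test of that difference. The Day 2 effect minus the Day 0 effect was -1.02 log2 units (SE 0.22, edgeR quasi-likelihood adjusted p = 0.0438), which lies near the threshold of 0.05. In that test 68 of all 17500 genes, or 0.389%, passed. With 1 library left out, the count of all genes that passed ran from 13 to 205. Maff averaged 6.18 ± 0.92 CPM in the Day 2 PCBP1 knockdown, against 14.2 ± 2.9 CPM in controls (SD, n = 3), and 15.9 to 19.2 CPM in the Day 0 PCBP1 knockdown, against 17.2 to 22.2 CPM in controls. The Day 2 groups did not overlap and the Day 0 groups did. No member of the heme breakdown and export set was picked out in this way, and groups of 3 libraries are too small for a test of outlying samples.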

How the results depend on the processing

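Among the 66 member values, the 26 called ones kept their call in 435 of 468 values with a library left out and in 193 of 212 other values. Scaling moved most. With library totals Hmox2 reversed between the days (-1.17 in controls, -1.06 in the PCBP1 and -0.55 in the PCBP2 knockdown) and 3 members were called for PCBP2 at Day 2 in place of 1. Without calls, values turned positive with library totals for PCBP1 at Day 2 (Hmox1 0.16, Hmox2 0.18, Bach1 0.10), for PCBP2 at Day 2 (Hmox1 0.18, Blvra 0.12, Bach1 0.13), and in the difference of days for PCBP1 (Hmox1 0.16, Hmox2 0.11, Blvrb 0.16, Flvcr1 0.15) and PCBP2 (Blvra 0.03, Bach1 0.14). For PCBP1 at Day 0, Blvra was 0.02 with DESeq2, its size factors or library totals, and Hmox1 0.01 with the length offset and 0.06 with the GC trend removed. For PCBP2 at Day 2, Hmox1 was 0.03 with the GC trend removed and 0.01 in the 9 libraries of the day. The 9-library fit left 1 member called for PCBP1 at Day 2 in place of 2, and 0 in place of 3 between the knockdowns. Between the knockdowns at Day 0, 0 members were called with the length offset or the GC trend removed, in place of 1. The cause was not tested.

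With single libraries left out, the number of members called ranged from 1 to 2 for PCBP1 and for PCBP2 at Day 2, from 0 to 1 between the knockdowns at Day 0, from 0 to 3 between them at Day 2, and from 5 to 6 for the days in controls and in the PCBP1 knockdown. Uncalled values that crossed 0 in this way ranged, for PCBP1 at Day 2, from -0.27 to 0.13 (Hmox1) and -0.16 to 0.13 (Hmox2), and at Day 0 from -0.12 to 0.04 (Hmox1), -0.04 to 0.11 (Hmox2) and -0.10 to 0.08 (Blvra). For PCBP2 they ranged at Day 2 from -0.13 to 0.05 (Hmox1), -0.25 to 0.06 (Blvra) and -0.17 to 0.01 (Bach1), and at Day 0 from -0.09 to 0.02 (Hmox2). Between the knockdowns at Day 2 they ranged from -0.18 to 0.22 (Hmox1) and -0.05 to 0.12 (Bach1). For the difference of days they ranged for PCBP1 from -0.26 to 0.15 (Hmox1), -0.21 to 0.08 (Hmox2), -0.15 to 0.11 (Blvrb), -0.19 to 0.03 (Flvcr1) and -0.01 to 0.14 (Bach1), and for PCBP2 from -0.16 to 0.02 (Bach1).

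Over all tested genes, deviations from the group means were hardly correlated between libraries with the same shRNA on both days (r from -0.05 to 0.07, with those of the same shRNA number in both knockdowns). The main fit does not take the numbers as pairs. This r does not describe each gene: with the PCBP1 shRNAs, Pcbp1 and Blvrb kept the same order on both days, as given above. With the shRNA number as a replicate block, 0 members were called between the knockdowns at Day 2 and 0 at Day 0, and 6 stayed called for the days in each condition.

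Shares of reads without the length adjustment put Blvrb-203 at 10.9 and 8.3 points above control at Day 2 and 15 and 4.9 points at Day 0 (PCBP1 and PCBP2). At 20 points in place of 10, 0 member splicing variations were listed. Of pathway genes, the 9-library fit called 13 for PCBP1 at Day 2, 16 for PCBP1 at Day 0, 0 for PCBP2 at Day 2, and 3 and 4 between the knockdowns at Day 2 and Day 0, in place of 20, 1, 10, 9 and 1. Library totals gave 6 for PCBP2 at Day 2 and 3 for the PCBP1 difference of days, in place of 10 and 1. With the GC trend removed, an alternative added after seeing the data for these lists, 3 were called for PCBP2 at Day 2, 0 for PCBP1 at Day 0 and 0 between the knockdowns at Day 0, where DESeq2 size factors also gave 0. Day 2 counts of Blvra and Flvcr1 were low, which limits their precision.

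Over all tested genes, the number called moved by more than 1.5 times in these settings. For PCBP1 at Day 0, in place of 154, it was 431 with DESeq2, 479 without the filter, 1074 in the 9 libraries, 65 with the length offset and 25 with the GC trend removed. For PCBP2 at Day 0, in place of 4, it was 13, 65 without the filter and 2 with the length offset. At Day 2, library totals gave 4080 in place of 2296 for PCBP1, and the 9 libraries gave 899, while PCBP2 had 1558 with DESeq2, 383 with the GC trend removed and 30 in the 9 libraries in place of 822. Between the knockdowns, the 9 libraries gave 401 and the block 738 in place of 2115 at Day 2, and at Day 0 the settings ran from 15 to 275 in place of 49. For the difference of days the settings ran from 112 to 598 in place of 68 for PCBP1 and from 1 to 169 in place of 0 for PCBP2. With 1 library left out, the counts ran from 17 (without PCBP1 shRNA 1 of Day 0) to 251 (without LUC-1 of Day 2) for PCBP1 at Day 0, from 2 to 6 for PCBP2 at Day 0, from 1485 (without LUC-1 of Day 2) to 2663 for PCBP1 at Day 2, and from 437 (without PCBP2 shRNA 4 of Day 2) to 1145 for PCBP2 at Day 2. Between the knockdowns they ran from 1043 (without PCBP1 shRNA 1 of Day 2) to 3044 at Day 2 and from 9 (without PCBP1 shRNA 1 or 4 of Day 0) to 76 at Day 0. For the difference of days they ran from 13 (without PCBP1 shRNA 1 of Day 0) to 205 (without PCBP1 shRNA 3 of Day 2) for PCBP1 and from 0 to 3 for PCBP2. The shares of all genes printed beside the members move with these counts.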
